A study of Homo sapiens with 34 samples.

Results

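The high mobility group (HMG) genes encode small, abundant proteins that bind chromatin without reading a long DNA sequence. The HMGB proteins carry paired HMG boxes that sit in the minor groove and bend DNA, and in early B cells HMGB1 and HMGB2 are known as cofactors of the RAG recombinase. HMGA1 holds on to AT-rich DNA through AT hooks. The HMGN proteins bind the nucleosome itself and compete there with the linker histone H1.

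The 9 genes *HMGB1*, *HMGB2*, *HMGB3*, *HMGA1*, *HMGN1*, *HMGN2*, *HMGN3*, *HMGN4* and *HMGN5* were chosen by symbol, out of 17587 genes listed in at least 1 of 6 expression tables. Earlier results of these data were known at that choice. All 9 genes were listed in every table. RNA came from 3 human lines of B-cell acute lymphoblastic leukaemia, BV-173 with the fusion BCR-ABL, NALM-6 with ETV6-PDGFRB and RS4;11 with MLL-AF4, each grown in RPMI1640 with serum. In each line, cells carrying a lentiviral shRNA against *CCND3*, the gene of cyclin D3, were compared with cells carrying a scrambled shRNA, and both were sorted by the TagRFP of the vector on day 4 after transduction. In a separate experiment with its own controls, cells treated for 3 days with 1 µM palbociclib, an inhibitor of the kinases CDK4 and CDK6, had cells in DMSO, its solvent, as their control. The 12 groups held 34 samples, 3 in each group except for NALM-6 with *CCND3* shRNA and BV-173 with DMSO, which held 2. A single shRNA sequence per line stood for the knockdown. The comparisons bear on what loss of the cyclin and inhibition of its kinases share.

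The tables held 1 level per group, pooled by the authors over its samples and scaled within each pair of groups. The spread between replicate cultures and the depth of each sample are therefore unknown, no value below carries a replicate SD, and the 3 cell lines were the units of every test. All 9 B-lineage markers were listed in every table, although *MME*, which encodes CD10, stood at only 2.53 and 3.98 in the 2 control groups of RS4;11. In the controls, 4 myeloid markers summed to between 88.35 and 559.6, against 57386 to 77614 for the 9 B-lineage markers. The shRNA target *CCND3* fell to 20.7% of its control in RS4;11, 24.2% in NALM-6 and 31.1% in BV-173, and under palbociclib it stood at 81.8%, 78.0% and 76.0% in the same order. The 16 proliferation genes of a list that included *MKI67*, *TOP2A* and the *MCM2* to *MCM7* helicase genes passed 1.5-fold downwards in 5 of the 6 comparisons without exception, and in BV-173 after knockdown only 4 of them did. Their part in the results on the HMG genes was not tested.

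In control cells the levels of the 9 HMG genes spanned a wide range. Wherever 3 values stand together below without a line's name, NALM-6 comes first, RS4;11 next and BV-173 last. *HMGB1* had levels of 36135, 30138 and 37288 with scrambled shRNA and of 35990, 34093 and 29017 with DMSO. At most 0.385% of listed genes had a higher control level than *HMGB1* in any table, and 12.2% to 22.1% had a higher one than *HMGB3*. At the other end *HMGN5*, the family member with a long acidic tail, had control levels between 566.2 in RS4;11 and 1761 in BV-173, with 16.8% to 40.4% of listed genes above it. It was also the member with the widest span between lines, 3.11-fold among the scrambled controls, whereas the controls of *HMGB1* spanned 1.24-fold in either experiment. Tables were scaled separately, so levels set across lines carry that reservation.

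Levels were divided by the gene length given in each table to compare the genes with one another. Per kb of length, *HMGB2* ranked first among the 9 in both controls of NALM-6, with 12272 and 16058, and *HMGA1* ranked first in all 4 controls of RS4;11 and BV-173, with 11345 to 13284. *HMGB3* or *HMGN5* ranked last in each control. The 3 HMGB genes together made up 36.4% to 50.9% of the summed level per kb of all 9 genes in controls, the 5 HMGN genes 28.4% to 35.5% and *HMGA1* 17.4% to 30.5%. The HMG pool of the control cells was thus carried by 5 genes, *HMGB1*, *HMGB2*, *HMGA1*, *HMGN1* and *HMGN2*, which held the first 5 ranks per kb in all 6 controls.

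**Figure D1:**
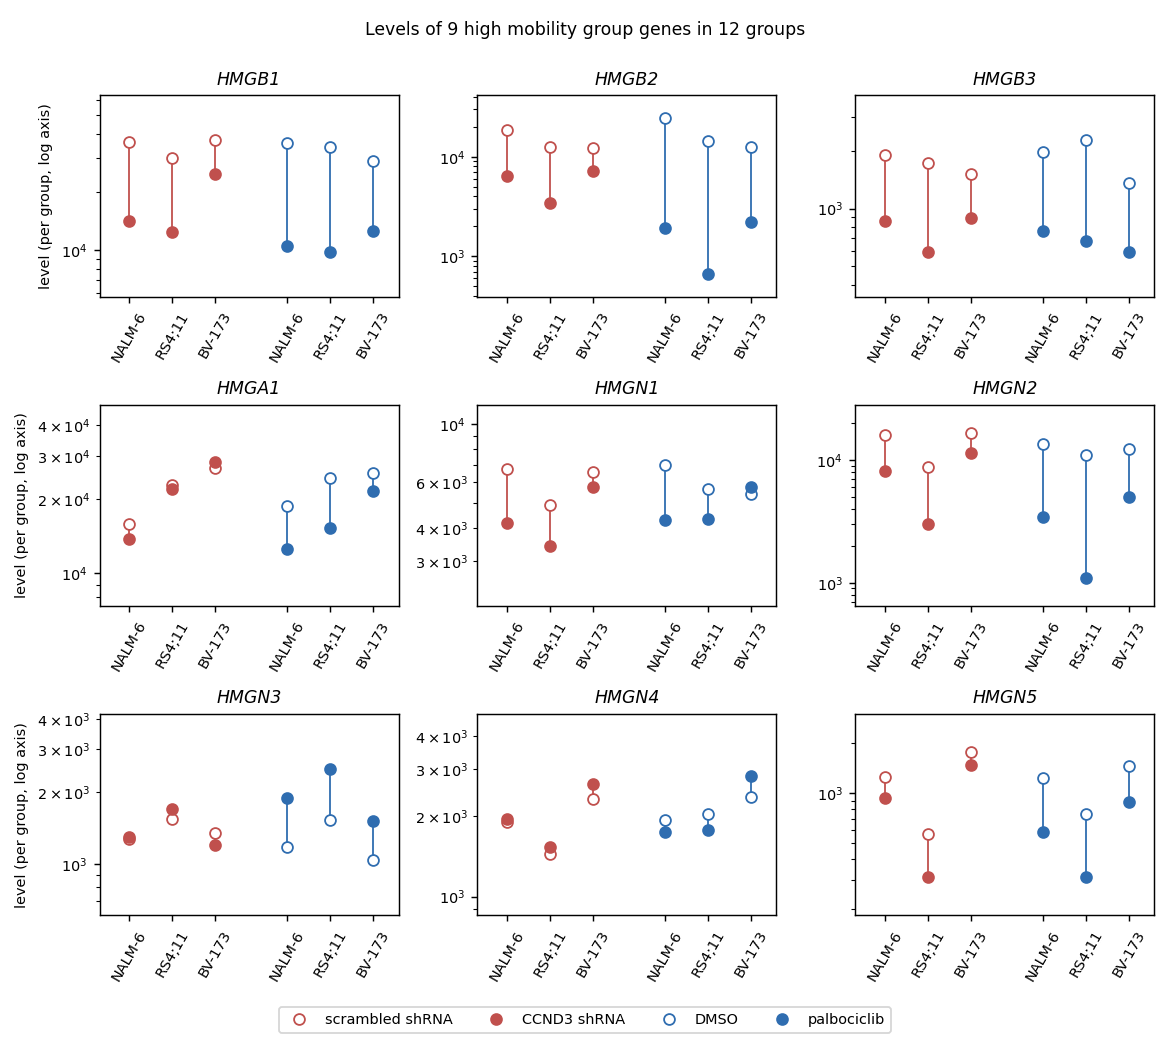
Levels of the 9 HMG genes in the 12 groups, 1 panel per gene with its own logarithmic axis. Each point is the authors' value for 1 group, open for controls and filled for treated cells, red for the knockdown and blue for the palbociclib experiment, and a line joins the 2 groups of a pair. *HMGB2* runs from 24391 with DMSO to 1934 with palbociclib in NALM-6 and *HMGN3* from 1181 to 1877, while the points of *HMGN4* lie within 1.21-fold of each other in every pair.

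The 3 HMGB genes had a lower level than control in all 3 lines and under both treatments, as did *HMGN2* and *HMGN5*. *HMGB1*, whose protein is the most widely expressed of the family and can also act outside the cell as an alarm signal, went from 36135 to 14128 in NALM-6, from 30138 to 12493 in RS4;11 and from 37288 to 24905 in BV-173 after knockdown. Under palbociclib it went from 35990 to 10524, from 34093 to 9773 and from 29017 to 12584 in the same order. Each of the 6 treated groups lay below all 6 control groups. Each pair of groups was scaled separately, and how many of all genes showed the same was not counted, here or for the genes below. Over the 3 lines *HMGB1* fell 2.10-fold after knockdown (mean log2 ratio -1.07, SE 0.16, limma adjusted p = 0.0189) and 3.02-fold under palbociclib (-1.59, SE 0.19, limma adjusted p = 0.00873). In bulk RNA, fewer cells of a type and less RNA per cell cannot be told apart, and this holds for every level given here. The fall of *HMGB1* was smallest in BV-173 in either experiment. After knockdown its 1.497-fold fall there (log2 ratio -0.58) stayed just short of the fold threshold of 1.5 used to call a member in 1 line.

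*HMGB2* (chr4:173331376-173334358 in GRCh38.p14), the HMGB gene known for its high level in dividing and lymphoid cells, was the member with the largest fall in each palbociclib comparison. Its level dropped from 24391 to 1934 in NALM-6, from 14557 to 669.7 in RS4;11 and from 12557 to 2230 in BV-173. These are falls to 7.93%, 4.601% and 17.8% of control. After knockdown the levels went from 18629 to 6348, from 12423 to 3398 and from 12227 to 7283, or to 34.1%, 27.4% and 59.6% of control. No treated group of *HMGB2* reached the level of any control group, with the reservations given for *HMGB1*. In NALM-6 under palbociclib only 0.173% of the listed genes had a lower ratio, and in BV-173 only 0.122%. The mean fall over the lines was 11.6-fold under palbociclib (log2 ratio -3.53, SE 0.34, limma adjusted p = 0.00672) and 2.62-fold after knockdown (-1.39, SE 0.19, limma adjusted p = 0.0185).

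*HMGB3*, which is X-linked and known from haematopoietic progenitors, had a lower level than the other HMGB genes and fell in both experiments. Its level went from 1910 to 858.5, from 1736 to 597.6 and from 1517 to 892.6 after knockdown, and from 1974 to 763.1, from 2295 to 677.2 and from 1358 to 591.3 under palbociclib. The treated and control levels did not overlap in either experiment, with the reservations given for *HMGB1*. The mean log2 ratios were -1.15 (SE 0.15, limma adjusted p = 0.0185) and -1.44 (SE 0.15, limma adjusted p = 0.00672). With *HMGB2*, *HMGB3* was the only member past 1.5-fold in all 6 comparisons.

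The HMGN genes, whose products share a nucleosome-binding domain, split in their response. *HMGN2*, the most abundant of them in controls, went from 15987 to 8190 in NALM-6, from 8864 to 3044 in RS4;11 and from 16687 to 11370 in BV-173 after knockdown. Under palbociclib it went from 13504 to 3458, from 11080 to 1098 and from 12292 to 4993. The knockdown groups overlapped the controls, since BV-173 with *CCND3* shRNA (11370) lay above RS4;11 with scrambled shRNA (8864). The palbociclib groups did not overlap the controls, with the reservations given for *HMGB1*. *HMGN2* fell 2.03-fold over the lines after knockdown (log2 ratio -1.02, SE 0.17, limma adjusted p = 0.0216) and 4.59-fold under palbociclib (-2.20, SE 0.36, limma adjusted p = 0.0153). RS4;11 stood apart within this gene, with 9.91% of control left under palbociclib against 25.6% in NALM-6 and 40.6% in BV-173.

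*HMGN5* (chrX:81113699-81201913) followed at a lower level. After knockdown its level changed from 1258 to 933.2, from 566.2 to 312.7 and from 1761 to 1480, and under palbociclib from 1240 to 582.8, from 749.6 to 314.0 and from 1462 to 885.6. All 3 palbociclib comparisons but only RS4;11 among the knockdown comparisons passed 1.5-fold. The mean log2 ratio was -1.02 under palbociclib (SE 0.15, limma adjusted p = 0.0126) and -0.51 after knockdown (SE 0.14, limma adjusted p = 0.0800), and the latter call was lost without RS4;11 (limma adjusted p = 0.449) and without NALM-6 (limma adjusted p = 0.166).

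*HMGN1* (chr21:39342315-39349088), the classical HMG-14 protein of the family, was the member with the weakest called fall. It went from 6741 to 4197 in NALM-6, from 4900 to 3439 in RS4;11 and from 6547 to 5742 in BV-173 after knockdown (mean log2 ratio -0.46, SE 0.12, limma adjusted p = 0.0608). Without NALM-6 or without RS4;11 that call was lost, with limma adjusted p = 0.263 and 0.267. Under palbociclib *HMGN1* went from 6968 to 4314, from 5675 to 4336 and from 5427 to 5750, so that BV-173 lay slightly above its control and the mean log2 ratio of -0.33 was not called (SE 0.17, limma adjusted p = 0.238). Without BV-173 the value was -0.54 and was called (limma adjusted p = 0.0959).

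*HMGN3* took the opposite course under palbociclib. This HMGN variant, first described as a partner of the thyroid hormone receptor, had levels of 1181, 1521 and 1038 with DMSO and 1877, 2476 and 1515 with palbociclib. The BV-173 level with palbociclib (1515) lay just under the RS4;11 control (1521), and within every line the treated level was the higher one. *HMGN3* rose 1.56-fold over the lines (log2 ratio 0.64, SE 0.12, limma adjusted p = 0.0208), the only member called higher in any comparison. After knockdown its level went from 1267 to 1292, from 1542 to 1689 and from 1340 to 1194, with a mean log2 ratio near 0 (95% interval -0.26 to 0.25, limma adjusted p = 0.995).

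*HMGN4*, which arose as a retroposed copy of *HMGN2*, was called in neither experiment. Its levels were 1910, 1445 and 2323 with scrambled and 1951, 1529 and 2635 with *CCND3* shRNA, and 1930, 2040 and 2356 with DMSO and 1745, 1771 and 2843 with palbociclib. The mean log2 ratio was 0.10 after knockdown (95% interval -0.13 to 0.33, limma adjusted p = 0.607) and -0.03 under palbociclib (95% interval -0.37 to 0.31, limma adjusted p = 0.916). *HMGN2* and *HMGN4* thus parted most in RS4;11 under palbociclib, where the ratio of their levels per kb went from 5.41 to 0.617.

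*HMGA1* (chr6:34236873-34246231), the AT-hook member, kept a high level. It was at 15900, 22906 and 26807 with scrambled and 13843, 22017 and 28449 with *CCND3* shRNA, a mean log2 ratio of -0.06 (95% interval -0.31 to 0.19, limma adjusted p = 0.802). Under palbociclib it went from 18788 to 12535, from 24396 to 15250 and from 25437 to 21596, lower in 3 of 3 lines. That mean of -0.50 did not pass the threshold of 0.1 (SE 0.18, limma adjusted p = 0.107). In NALM-6 the fall was 1.499-fold, at the edge of the fold threshold, and in RS4;11 the gene passed it with a log2 ratio of -0.68.

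**Figure D2:**
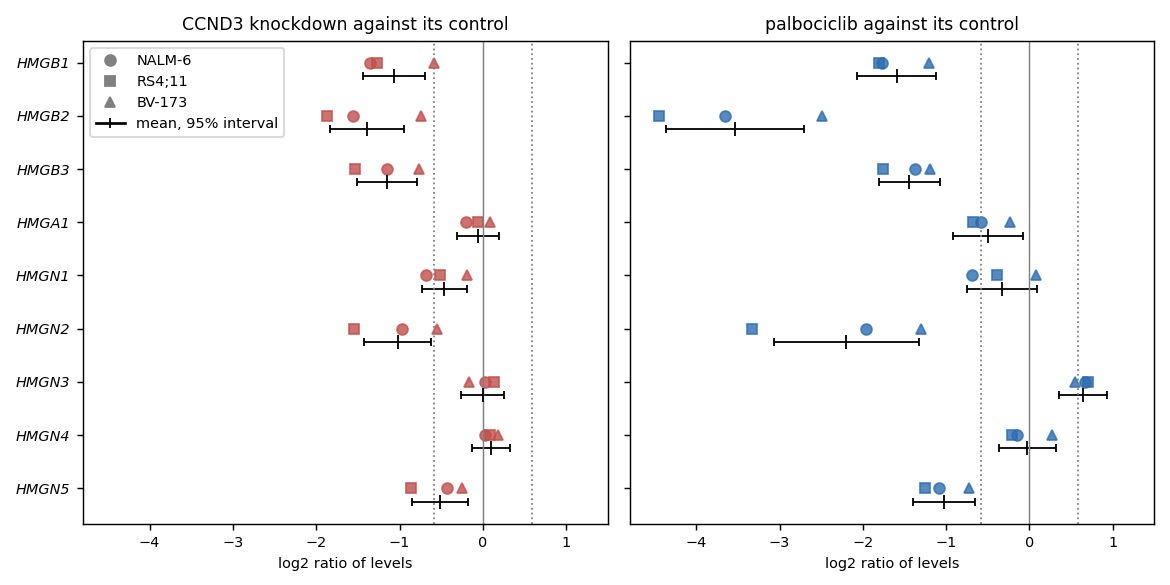
Log2 ratio of the treated to the control level for the 9 HMG genes in each cell line (markers) after *CCND3* knockdown (left, red) and under palbociclib (right, blue). Black bars give the mean of the 3 lines with its 95% interval from limma and dotted lines mark 1.5-fold. The *HMGB2* points lie between -4.44 and -2.49 under palbociclib, those of *HMGN3* between 0.55 and 0.70, and BV-173 lies nearest to 0 for each member called lower.

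Counted by line, knockdown lowered 5 of the 9 genes by at least 1.5-fold in NALM-6 (8.47% of all listed genes passed it), 5 in RS4;11 (9.72%) and 2 in BV-173 (4.78%). Palbociclib lowered 6 genes in NALM-6 (14.9% of all listed genes), 6 in RS4;11 (15.0%) and 5 in BV-173 (11.9%). In the upward direction palbociclib moved 1 gene, *HMGN3*, past 1.5-fold in NALM-6 (21.4% of listed genes) and in RS4;11 (16.7%), and it stayed within that fold in BV-173 (13.6%). The share of the family that fell was above that of listed genes in each comparison, and the share that rose was not. The members were chosen with earlier results of these data known, so these shares are a description and not a test of the family. The median log2 ratio of the 9 genes was -0.51 after knockdown and -1.02 under palbociclib, against 0.00 and 0.04 over all 13307 genes tested.

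Over the 3 lines, knockdown lowered 6 of the 9 genes, *HMGB1*, *HMGB2*, *HMGB3*, *HMGN1*, *HMGN2* and *HMGN5*, where 7.48% of all genes tested were called lower. Palbociclib lowered 5 genes, those of the knockdown without *HMGN1*, where 13.6% of genes were called lower, and raised 1, where 11.2% were called higher. For all 6 genes lowered by knockdown and all 5 lowered by palbociclib, the ratio in BV-173 was the closest to 0 of the 3 lines. BV-173 also kept the largest share of its control level of *CCND3* after knockdown (31.1%). Its *CCND3* level was nevertheless the lowest, at 2060 against 4727 in NALM-6 and 3353 in RS4;11, with each line scaled separately. Its scrambled control was lower too, at 6619 against 19499 and 16178. BV-173 had the smallest fall of the proliferation genes, at a median log2 ratio of -0.49 after knockdown and -1.64 under palbociclib. RS4;11 gave the lowest ratio for *HMGB2*, *HMGB3*, *HMGN2* and *HMGN5* in both experiments, and the median log2 ratio of the proliferation genes was lowest there, at -1.71 and -3.96. Differences between lines could not be tested with 1 level per group.

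The log2 ratios of the 2 experiments were then compared within each line to ask which HMG genes responded differently to cyclin loss and to kinase inhibition. *HMGB2* differed most. Its ratio after knockdown was higher than under palbociclib by 2.14 on the log2 scale, or 4.41-fold (95% interval 1.75 to 2.53, limma adjusted p = 0.00627). *HMGN2* differed in the same direction by 1.18 (95% interval 0.72 to 1.64, limma adjusted p = 0.0249), *HMGB1* by 0.52 (0.21 to 0.84, limma adjusted p = 0.0728) and *HMGN5* by 0.51 (0.22 to 0.80, limma adjusted p = 0.0658). For these 4 genes palbociclib gave the deeper fall in 3 of 3 lines. A higher ratio after knockdown than under palbociclib was called for 7.16% of all genes tested, whether or not they fell. All 16 proliferation genes were called in that direction too, at a median of 1.80, and a link to the HMG genes was not tested. *HMGN3* was the only member called the other way, by -0.64 (-0.90 to -0.39, limma adjusted p = 0.0250), where 4.16% of all genes were called.

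For 4 members no difference was called. The interval for *HMGB3* ran from 0.02 to 0.57 around 0.29 (limma adjusted p = 0.188) and that for *HMGA1* from 0.12 to 0.76 around 0.44 (limma adjusted p = 0.112), so neither gene was shown to respond alike. *HMGN1* had an interval of -0.39 to 0.13 and *HMGN4* of -0.15 to 0.40 (limma adjusted p = 0.520 and 0.563). The knockdown and palbociclib experiments differed in vector, duration and controls as well as in target, and knockdown left 20.7% to 31.1% of *CCND3*. These differences cannot be told apart here. The calls of this comparison were the least stable: without RS4;11 and without BV-173 only *HMGB2*, *HMGN2* and *HMGN3* were called, without NALM-6 *HMGN5* was lost, and with no trend of the variance on the level only *HMGB2* remained.

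**Figure D3:**
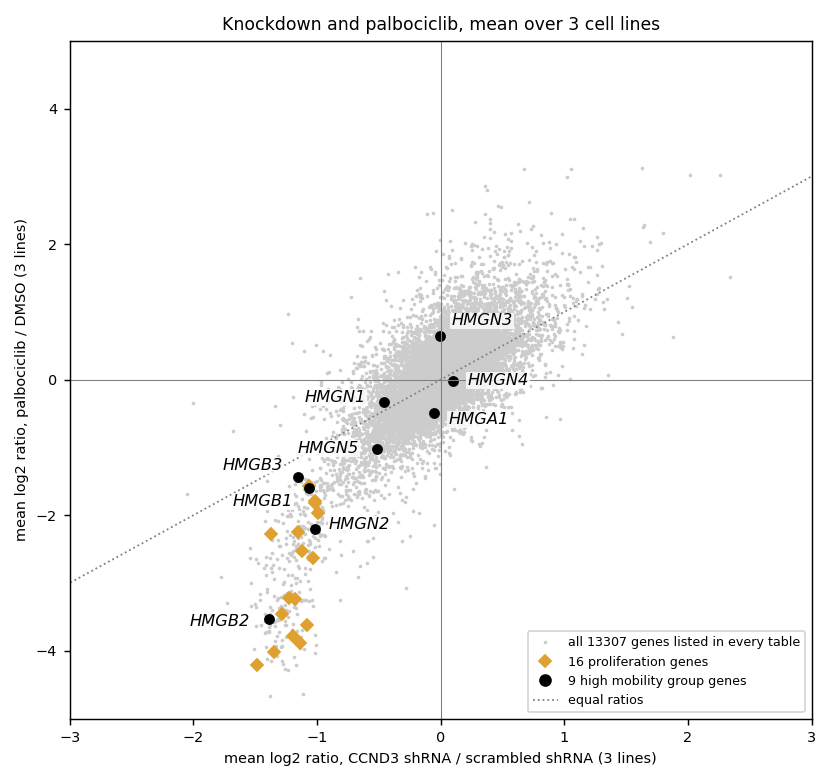
Mean log2 ratio over the 3 lines after *CCND3* knockdown (horizontal) and under palbociclib (vertical) for the 13307 genes listed in every table (grey), 16 proliferation genes (orange diamonds) and the 9 HMG genes (black), with a dotted line where both ratios are equal. *HMGB2* at -1.39 and -3.53 lies among the proliferation genes, *HMGB3* at -1.15 and -1.44 lies near the dotted line, and *HMGN3* lies above 0 on the vertical axis only.

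Seen as a pool, the HMG transcripts shrank and changed in make-up. The summed level of the 9 genes per kb went from 49155 to 18245 in NALM-6, from 43073 to 17857 in RS4;11 and from 41255 to 25484 in BV-173 under palbociclib. After knockdown it went from 45092 to 24583, from 37759 to 22975 and from 47240 to 38318. The HMGB genes' share of this pool dropped in every comparison, under palbociclib from 50.9% to 21.6%, from 42.2% to 16.3% and from 37.5% to 18.0%. After knockdown it went from 47.1% to 31.4%, from 41.6% to 23.2% and from 36.4% to 28.4%. *HMGA1* took the first rank per kb in all 6 treated groups, including both of NALM-6, where *HMGB2* had held it in the controls.

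Within the families the order turned in some of the comparisons. *HMGB2* had 1.91, 1.20 and 1.22 times the level per kb of *HMGB1* with DMSO and 0.517, 0.192 and 0.5 times that level with palbociclib. After knockdown the same ratio moved less, from 1.45 to 1.27, from 1.16 to 0.764 and from 0.921 to 0.821. *HMGN3* went from 0.181, 0.276 and 0.162 times the level per kb of *HMGN2* to 1.12, 4.53 and 0.582 times under palbociclib. After knockdown it went from 0.159 to 0.316, from 0.344 to 1.1 and from 0.165 to 0.216 times. In RS4;11 with palbociclib *HMGN3* made up 33.8% of the HMGN level per kb and *HMGN2* 7.47%, where the DMSO control had 12% and 43.5%. These are ratios of the authors' group values with no error of their own.

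**Figure D4:**
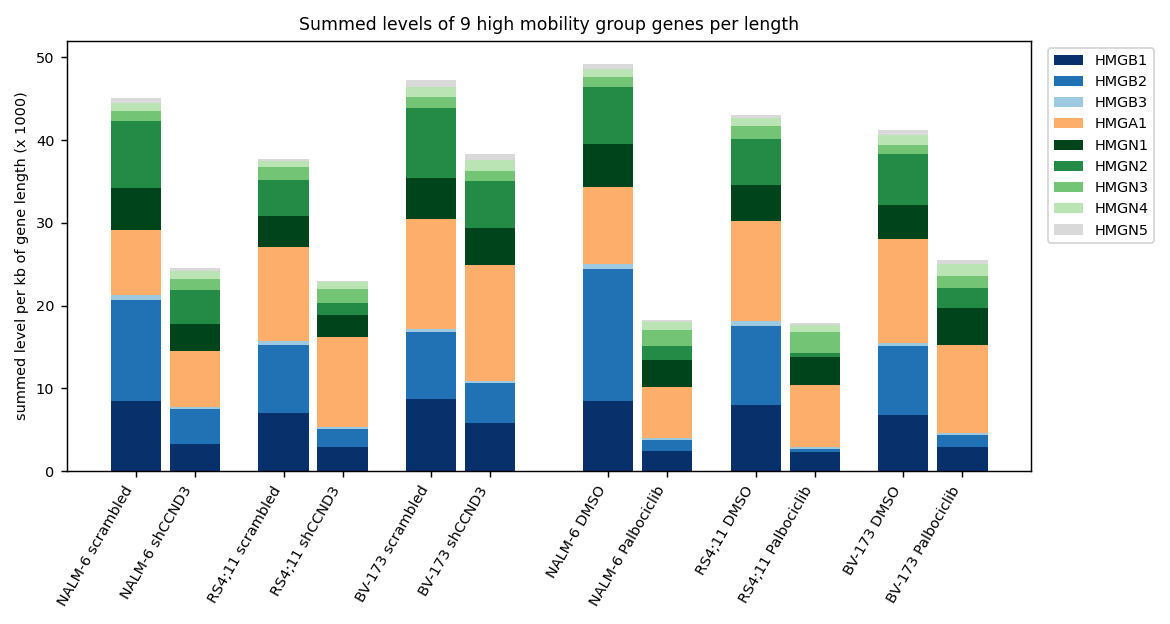
Summed level of the 9 HMG genes per kb of gene length in the 12 groups (axis in units of 1000), with each gene as 1 segment (blue HMGB, orange *HMGA1*, green and grey HMGN). Control and treated groups stand side by side. The blue segments shrink in every pair, from 25032 to 3950 in NALM-6 under palbociclib, and the orange segment is the largest single one in all treated groups.

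The promoters were read from the RefSeq table for GRCh38.p14, in which 8 of the 9 members, all but *HMGB2*, had a window of 250 bases before to 50 bases after the canonical start. They were searched on both strands for 3 elements known from cell cycle promoters. These were the CCAAT box (CCAAT), the cell cycle homology region (TTTGAA) and an E2F site written as TTTCCCGC, TTTGGCGC, TTTCGCGC or TTTGCCGC. CCAAT occurred in 6 of the 8 windows, against 34.6% of all 35116 windows of the same length. *HMGB1* and *HMGB3*, which fell in both experiments, each held 3 copies, which 3.26% of all windows did (3 or more). TTTGAA occurred in 1 member, *HMGB3*, at base -172, against 15.2% of all windows, and none of the E2F words occurred in the 8 windows, against 3.31%. A match is a stretch of letters and says nothing about binding.

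The 150 bases before the start are shown for these 2 genes, for *HMGN2*, which also fell, for *HMGN3*, which rose under palbociclib, and for *HMGN4*, which was not called. Capitals mark CCAAT or its reverse complement.
*HMGB1* (chr13:30465937-30466086, minus strand): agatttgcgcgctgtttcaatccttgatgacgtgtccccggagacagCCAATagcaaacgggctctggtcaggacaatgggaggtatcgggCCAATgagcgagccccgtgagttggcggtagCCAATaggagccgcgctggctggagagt
*HMGB3* (chrX:150983185-150983334, plus strand): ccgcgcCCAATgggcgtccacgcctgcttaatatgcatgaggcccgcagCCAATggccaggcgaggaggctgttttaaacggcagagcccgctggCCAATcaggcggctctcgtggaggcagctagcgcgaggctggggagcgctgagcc
*HMGN2* (chr1:26472290-26472439, plus strand): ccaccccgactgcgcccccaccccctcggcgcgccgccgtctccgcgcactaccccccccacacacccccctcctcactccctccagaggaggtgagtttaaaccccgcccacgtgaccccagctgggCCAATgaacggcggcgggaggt
*HMGN3* (chr6:79234683-79234832, minus strand): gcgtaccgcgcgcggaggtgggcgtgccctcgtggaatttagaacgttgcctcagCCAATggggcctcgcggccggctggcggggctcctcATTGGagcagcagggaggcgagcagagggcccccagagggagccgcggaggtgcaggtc
*HMGN4* (chr6:26538216-26538365, plus strand): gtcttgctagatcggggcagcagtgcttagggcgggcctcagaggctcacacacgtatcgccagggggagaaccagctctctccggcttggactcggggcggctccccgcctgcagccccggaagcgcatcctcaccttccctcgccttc
The 3 boxes of *HMGB1* begin at bases -103, -59 and -28 from the start and those of *HMGB3* at -144, -101 and -55, all in the forward direction. *HMGN2* has 1 at -22, *HMGN3* has 1 forward at -95 and 1 reversed at -59, and *HMGN4* has none. The bases printed for *HMGB1* and *HMGB3* lie inside the span annotated to the gene (chr13:30456704-30617597 and chrX:150980507-150990771), since other transcripts begin further upstream, and the bases printed for *HMGN2* (chr1:26472440-26476642), *HMGN3* (chr6:79201245-79234682) and *HMGN4* (chr6:26538366-26546933) lie just outside it. CCAAT did not sort the members by response, as *HMGN1* held 2 copies and *HMGN5*, lowered by both treatments, held none.

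For the 5 members past 1.5-fold in at least 4 comparisons, the genes with the most similar pattern were sought by Euclidean distance over the 6 log2 ratios, among 8279 genes with a level of at least 100 in all groups. *HMGB2* was closest to *CENPF*, *KIF11* and *CKAP2L*, genes of the mitotic spindle and kinetochore, at distances of 0.561 to 0.663. *HMGB1* was closest to *ANP32E*, a histone chaperone, *LIN9*, a subunit of the MuvB complex, and *DUT*, the dUTPase gene (0.237 to 0.326). *HMGB3* lay nearest to *RMI1*, with a distance of 0.123, and then to *POLE* and *RFWD3*, all with roles in DNA replication or repair. *HMGN2* was nearest to *DONSON*, *TIMELESS* and *DDX11*, known from replication forks (0.448 to 0.477), and *HMGN5* to *HNRNPD*, *SEPT11* and *NUP35* (0.159 to 0.226). Distances grow with the size of the ratios, so those of *HMGB2* cannot be set against those of *HMGN5*.

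Genes around the family were read from lists written from general knowledge, with earlier results of these data known. Of 25 genes for other proteins with an HMG box, 23 were tested over the lines, and knockdown lowered 5 and raised 1, where 7.48% of all genes tested were called lower and 4.95% higher. Palbociclib lowered 5 and raised 2, where 13.6% were called lower and 11.2% higher. Their median log2 ratios were 0.04 and -0.07. *NSD2*, a histone H3 methyltransferase, was the only one past 1.5-fold in all 6 comparisons, with mean log2 ratios of -1.16 (SE 0.14, limma adjusted p = 0.0176) and -2.42 (SE 0.23, limma adjusted p = 0.00672). *SSRP1*, the HMG-box subunit of the histone chaperone FACT, went from 9503 to 3565, from 9962 to 4060 and from 10083 to 5212 under palbociclib (-1.22, SE 0.15, limma adjusted p = 0.00838), and *HMGXB4* fell there by 1.18 on the log2 scale (SE 0.15, limma adjusted p = 0.00945).

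Of 10 genes of the SET complex and other partners of HMGB1 and HMGB2, knockdown lowered 3 (7.48% of all genes tested were called lower) and palbociclib 6 (13.6%). None of the 10 was called higher by limma in either. An unadjusted limma p under 0.05 was found for 7 and 6 of them, and for 3215 and 4342 of all 13307 genes tested. The difference between the treatments was called for 3 of the 10, *SET*, *ANP32B* and *SUPT16H*, all with the deeper fall under palbociclib. A higher ratio after knockdown was called for 7.16% of all genes tested, whether or not they fell. *ANP32B*, an acidic histone chaperone, went from 11338 to 2688, from 11212 to 3040 and from 4911 to 2326 under palbociclib (mean log2 ratio -1.68, SE 0.21, limma adjusted p = 0.00896). *SET*, an inhibitor of histone acetylation, had -0.78 there (SE 0.15, limma adjusted p = 0.0212) and -0.05 after knockdown (limma adjusted p = 0.829). Among 7 genes of linker histones, the competitors of HMGN proteins, 5 were tested and palbociclib lowered 4 (13.6% of all genes tested were called lower). The fifth, *H1-2*, was not called (mean log2 ratio 0.74, SE 0.41, limma adjusted p = 0.256), with log2 ratios of 1.53, 1.12 and -0.42. The 2 past 1.5-fold in all lines, *H1-5* and *H1-4*, had control levels of only 8.20 to 27.9. Replication-dependent histone transcripts are known to contribute little to an mRNA preparation by poly(A) capture, as used here. *H1-10*, also lowered by palbociclib, stood far higher, going from 4207 to 3383, from 4650 to 2437 and from 2335 to 776.8. Its mean log2 ratio was -0.94 (SE 0.24, limma adjusted p = 0.0472). *H1-3*, the remaining gene lowered, had control levels of 5.26 to 18.3.

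Of 7 genes for receptors of extracellular HMGB1, 6 were tested, and knockdown raised 1 (4.95% of all genes tested were called higher) while palbociclib raised 1 (11.2%) and lowered 1 (13.6% called lower). The one lowered was *CXCR4*, a chemokine receptor, with a mean log2 ratio of -0.53 (SE 0.18, limma adjusted p = 0.0974). *TLR4*, a receptor of innate immunity, was the only one past 1.5-fold in all 3 lines under palbociclib. Its level went from 290.1 to 475.5, from 63.5 to 192.4 and from 20.1 to 35.1 (mean log2 ratio 1.04, SE 0.27, limma adjusted p = 0.0514), and after knockdown from 370.6 to 976.1, from 89.7 to 306.9 and from 22.0 to 29.9 (1.21, SE 0.27, limma adjusted p = 0.0433). *HMGA2*, the relative of *HMGA1* that is known from embryonic tissue, was far below it in every line, between 2.49 and 7.69 in NALM-6, 224.9 and 572.6 in RS4;11 and 86.9 and 142.5 in BV-173.

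Reads of this family can be shared with processed copies elsewhere in the genome. RefSeq names 178 such copies, 50 of *HMGB1*, 48 of *HMGN2*, 38 of *HMGN1*, 32 of *HMGB3*, 8 of *HMGA1* and 1 each of *HMGB2* and *HMGN3*, and 1 antisense gene, *HMGN3-AS1*. None of these was listed in the tables, so how reads were divided between a gene and its copies is unknown, and the levels of *HMGB1*, *HMGN2*, *HMGN1* and *HMGB3* are uncertain to that extent. *HMGN4* and *HMGN5* have none.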

How the data were processed

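Libraries were made from oligo-dT selected mRNA. After filtering with SOAPnuke, the authors aligned reads by Bowtie2 (genome hg38), took gene levels from RSEM and tested each pair of groups in DESeq2, in versions and with an annotation not given in the sources used here. The authors' deposited tables hold a signal per group (1 level, scaled within the pair, replicates pooled), a gene length, used for levels per kb, and log2 fold changes, p-values and adjusted p-values, which were not used. Samples were grouped as labelled, and depth per sample is unknown.

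For each pair the log2 ratio of the levels was taken, with 1.5-fold as the threshold in a line. Over the lines, limma 3.58.1 (R 4.3.3) fitted 1 ratio per line for 13307 genes, with a variance trend on the mean level, two-sided with Benjamini-Hochberg adjustment, called under 0.1 and tested on simulated data. The spread is that between lines. The members and lists were chosen with earlier results of these data known. Named genes were the members, *CCND3*, up to 3 lowest and 3 highest genes per list and treatment past 1.5-fold in all lines, and the 3 nearest genes of members past it in at least 4 comparisons. *MME*, *HMGA2*, *H1-2*, *CXCR4*, *SUPT16H*, *RAG1* and *RAG2* were named after their values were seen. Of 17587 identifiers, 17553 matched RefSeq. Alternatives changed the fold, threshold, median, pseudocount, lowest level, variance trend, joint fit and lines. Python 3.11.15, pandas 2.3.3 and matplotlib 3.10.9 were used.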

Additional observations from a re-analysis of the deposited data

Results flagged for a closer look

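2 genes of the lists around the HMG family passed 1.5-fold in opposite directions in 2 cell lines under the same treatment, and the difference between the lines was not tested, since each group has 1 level. *HMGA2*, the AT-hook relative of *HMGA1*, had a log2 ratio of 0.86 in RS4;11 (315.5 to 572.6) and of -0.70 in BV-173 (140.9 to 86.9) after *CCND3* knockdown. *RAG2*, whose product forms the recombinase that HMGB1 and HMGB2 assist, had a log2 ratio of 0.76 in NALM-6 (2396 to 4067) and of -1.38 in BV-173 (1047 to 401.1) under palbociclib. No member of the family was past 1.5-fold in opposite directions in 2 lines under 1 treatment.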

How the results depend on the processing

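No paired analysis was possible because the tables hold 1 value per group and no columns for single samples, and replicates could not be left out for the same reason, so cell lines were left out instead. At a fold of 2, 3 members passed after knockdown in NALM-6 and 0 in BV-173 (of 5 and 2 at 1.5-fold), and with the threshold lowered to a rise of 25%, or a fall by the same factor, the count in BV-173 was 4. Calls of a difference between knockdown and palbociclib numbered 5, and 3 at an adjusted p under 0.05, 3 with a mean fold of at least 1.5 required, 1 with no variance trend, and 3 to 4 when a line was left out. The median log2 ratio of a table was at most 0.06 from 0.

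*HMGB1*, *HMGB2*, *HMGB3* and *HMGN2* were called lower in both treatments under each of the 10 alternatives, and *HMGN3* and *HMGN5* were called under each of them for palbociclib. After knockdown *HMGN1* and *HMGN5* were called under 4 of 10 alternatives each. *HMGA1* under palbociclib was called in 3 of 10, with limma adjusted p from 0.00632 to 0.485. The call on all genes depended on the settings: genes called after knockdown ranged from 492 without RS4;11 to 3011 in 1 fit over both treatments (1655 as reported), after palbociclib from 1758 to 6855 (3305), and for the difference from 70 with no variance trend to 1600 (1507). No called value changed its sign. The cause of these changes was not tested. Among genes with a mean level under 10, the largest log2 ratio in NALM-6, up or down, was 2.34 after knockdown and 4.26 under palbociclib, against 5.34 and 5.19 among genes at 100 or more, so ratios of low genes may be understated. The members, at 312.7 or more, lie above that range.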

Other observations

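Of the RAG pair, which HMGB1 and HMGB2 assist in recombination, *RAG1* went from 3536 to 925.4 in BV-173 under palbociclib and from 2907 to 1665 after knockdown. In NALM-6 it went from 25143 to 30303 and from 15269 to 15001, and in RS4;11 from 5673 to 8294 and from 3800 to 2934. The levels of *HMGB2* fell in all 6 of these comparisons.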
